A study of Homo sapiens with 2 samples.

Results

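The potassium channel genes were taken as the protein-coding genes on autosomes whose symbols run from KCNA to KCNV followed by a digit, with the KCNE and KCNIP genes left out. GENCODE 44, on the human genome build hg38, held 77 such genes among 19111 autosomal protein-coding genes, and KCND1, on the X chromosome, fell outside the rule. Their chromatin was read in CAMA-1, an established luminal breast carcinoma cell line, which was untreated, grown attached to plastic in medium with serum, and assayed by ATAC-seq. In this assay the transposase Tn5 inserts sequencing adapters into DNA that is not wrapped up in closed chromatin, so that reads pile up over open promoters and enhancers. There were 2 biological replicates of 50000 cells each and no second condition, so that no groups could be compared and no test was made. A gene was called open where a peak lay within 1 kb of any of its annotated transcription start sites (TSSs) in both replicates.

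Potassium channels let potassium ions leave or enter cells and thereby set the resting voltage of the membrane and end action potentials. Most of the genes are known from neurons, muscle and endocrine cells. In epithelia, members of several families also take part in the secretion of salt and fluid and in the control of cell volume. The voltage-gated pores (KCNA, KCNB, KCNC, KCND, KCNQ and KCNH) open when the membrane depolarises. The silent subunits (KCNF, KCNG, KCNS and KCNV) form no channel by themselves and modify other voltage-gated pores. Inward rectifiers (KCNJ) and two-pore-domain leak channels (KCNK) carry current at rest, and the KCNN, KCNT and KCNU pores respond to ions inside the cell.

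The replicates held 245736 and 259745 peaks, with a median width of 297 and 300 bp. Peak strength is given throughout as fold enrichment, the ratio of stacked reads at a peak to a background, with 1 read added to each. The steps between values fit a single background for the whole of each list, 3.35 and 3.52 reads. The authors report copy-number aberrations in CAMA-1. Values were not corrected for copy number here, and its part in them was not tested. All values are listed as replicate 1, then replicate 2. The peak lists carry no library totals, so the depth behind a value is given here as the height of its peak in stacked reads, and the lowest peak in either list was 11 reads high. A gene without a listed peak is therefore one where none was detectable at this depth, not one shown to be closed. Markers of breast luminal epithelium, such as EPCAM, KRT8, ESR1 and GATA3, were open in 10 of 10 genes, with a median fold enrichment of 92.3 and 90.1. Of 10 neuronal markers, 7 had a TSS peak in both replicates, and 5 had one at the canonical TSS, that of the transcript Ensembl takes as representative. The leukocyte genes PTPRC, SPI1, CD3E and CD79A had no TSS peak in either replicate. Among 5 heart and skeletal muscle markers, TNNT2 alone was open in both replicates.

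Open chromatin at a TSS was found for most of the potassium channel genes, but less often than over all genes and with weaker peaks. In both replicates, 50 of the 77 genes were open (64.9%, 95% Wilson interval 53.8 to 74.7), against 80.5% of all autosomal protein-coding genes. At the canonical TSS the count was 44 of 77 (57.1%), against 74.6% of all genes. By class, the share open at any TSS ran from 60% in the silent subunits to 71.4% in the KCNN, KCNT and KCNU pores. The 95% Wilson interval of each class held the 64.9% of the family, so the classes are described below without a difference in this share. The open genes were led by KCNN3, KCNK5, KCNH1, KCNN2 and KCNS3, which include calcium-activated, leak, voltage-gated and silent members. Every gene of the KCND, KCNF and KCNN families was open. In the KCNA family KCNA2 was the only open gene of 8, and no KCNV or KCNU gene was open.

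Promoter sequences of 3 genes are shown as individual cases, picked for their values. In KCNN3 and KCNA4 CpG content and accessibility did not go together, while KCNK5 had many CG dinucleotides and a strong peak. Over the family, genes with CpG-rich promoters were open more often than others (78.7% against 43.3%). Each run holds the 200 bases just before the canonical TSS on hg38, written 5′ to 3′ on the strand of the gene, with CG dinucleotides in capitals, and none of them overlaps an annotated exon of a protein-coding gene. KCNN3 (chr1:154870282-154870481, minus strand) and KCNK5 (chr6:39229476-39229675, minus strand) had the strongest TSS peaks of the family. KCNA4 (chr11:30017031-30017230, minus strand) had no peak at a TSS or in the gene in either replicate.
KCNN3, open, 9 CG: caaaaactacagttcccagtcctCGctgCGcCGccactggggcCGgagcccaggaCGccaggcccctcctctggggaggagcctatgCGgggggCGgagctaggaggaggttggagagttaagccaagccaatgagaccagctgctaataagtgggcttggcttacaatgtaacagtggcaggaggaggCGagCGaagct
KCNK5, open, 25 CG: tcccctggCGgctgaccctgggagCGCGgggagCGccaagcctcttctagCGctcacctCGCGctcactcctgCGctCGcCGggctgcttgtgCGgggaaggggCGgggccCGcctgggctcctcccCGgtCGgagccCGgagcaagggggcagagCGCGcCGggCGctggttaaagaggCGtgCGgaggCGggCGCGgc
KCNA4, no peak, 24 CG: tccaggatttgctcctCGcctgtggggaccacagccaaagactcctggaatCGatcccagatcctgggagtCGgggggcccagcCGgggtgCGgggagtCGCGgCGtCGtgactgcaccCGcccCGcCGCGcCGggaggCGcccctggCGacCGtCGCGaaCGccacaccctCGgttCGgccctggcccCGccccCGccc
KCNA4 thus had 1 CG dinucleotide fewer than KCNK5 in this stretch and had no peak, while KCNN3, with the fewest of the 3, had the strongest.

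The strongest TSS peak of the 50 open genes had a median fold enrichment of 24.9 and 23.7, against 52.2 and 54.2 for all open genes. Only 15 of them in replicate 1 and 14 in replicate 2 lay above the median of all open genes. The median percentile of the open potassium channel genes was 22.9 and 21.5. Weak peaks made up part of this, since 13 of the 50 (26%) stayed below a fold enrichment of 10 in both replicates, against 7.39% of all open genes. A peak of 10 or more at the canonical TSS in both replicates was found for 32 of the 77 genes (41.6%), against 66.9% of all genes.

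**Figure D1:**
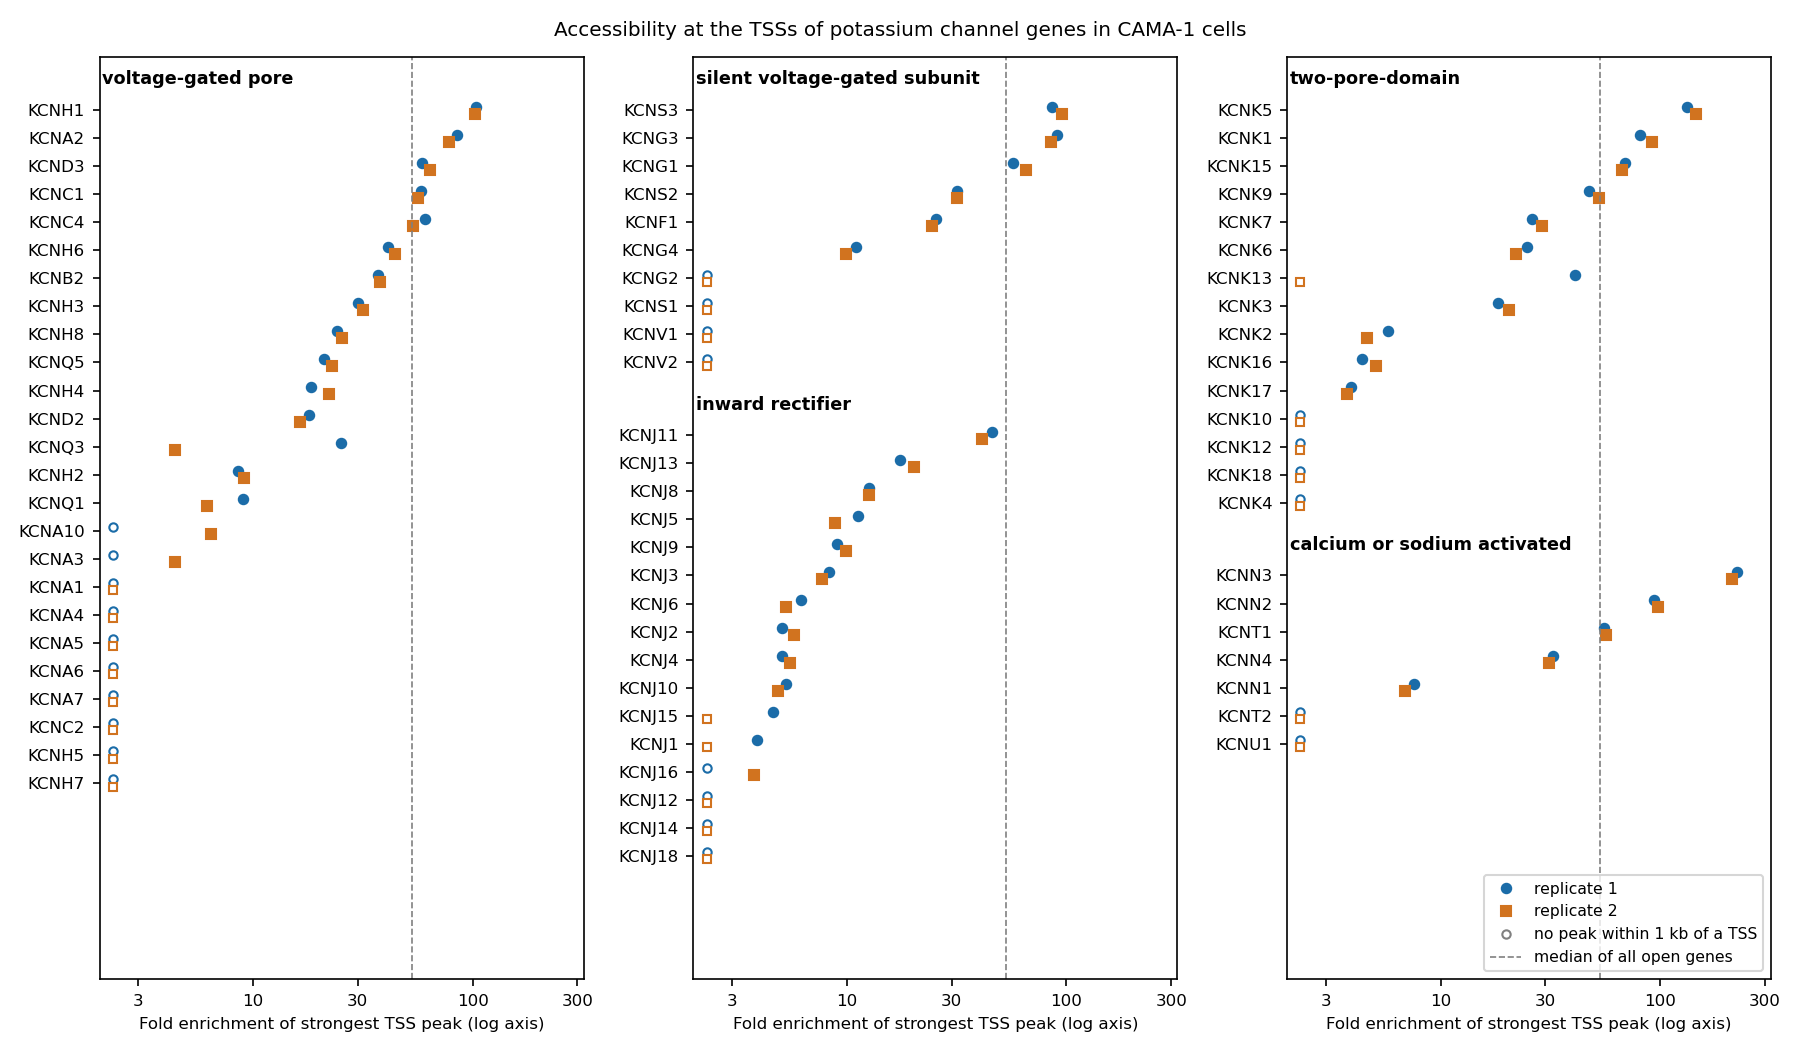
Fold enrichment of the strongest peak within 1 kb of a TSS (log axis) for 73 of the 77 genes by channel class, with circles for replicate 1, squares for replicate 2 and unfilled marks at the left edge where no peak was listed. The dashed line is the median of all open genes, and most of the 50 open genes lie to its left, with KCNN3 far to its right at 222.5 and 212.

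KCNN3, which encodes a small-conductance channel opened by calcium and calmodulin, had the strongest TSS peak of the family. Its fold enrichment was 222.5 and 212, at a height of 966 and 959 reads (95% Poisson intervals 906 to 1029 and 899 to 1022, which cover counting error only). That placed it at the 99.6th and 99.4th percentile of all open genes and at 3.93 and 3.75 times the median of chromosome 1. The peak covered chr1:154869985-154870767 in replicate 1, over the canonical TSS. The related KCNN2 reached 93.6 and 97.5, and KCNN4, the intermediate-conductance channel of blood cells and epithelia, reached 32.4 and 31.2. KCNN1 was open only at a TSS upstream of the canonical one, with 7.59 and 6.85. KCNT1, a sodium-activated channel of neurons, had 55.5 and 56.8 at an internal TSS and 31.8 and 34.1 at the canonical TSS. KCNT2 and the sperm channel gene KCNU1 had no TSS peak in either replicate, so that 5 of the 7 ion-activated genes were open.

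Among the two-pore-domain genes, 10 of 15 were open. KCNK5, an acid- and volume-sensitive leak channel of epithelia, led with 133 and 146, at a height of 575 and 657 reads. KCNK1, a weak inwardly rectifying leak channel, followed with 80.5 and 91.5, under a peak 3397 and 3430 bp wide, and KCNK15 had 69.0 and 67.0. KCNK9, an acid-sensitive leak channel, had 47.2 and 52.4, which lay below the median of all open genes in both replicates. Lower values were seen for KCNK7 (26.0 and 29.0), KCNK6 (24.6 and 22.1) and KCNK3 (18.2 and 20.6). KCNK2, KCNK16 and KCNK17 were open by weak peaks of between 3.76 and 5.75 across both replicates. KCNK17 and KCNK16 are direct neighbours of KCNK5 on chromosome 6, so that very strong and very weak TSS peaks stood within the same 134 kb.

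Of the 29 voltage-gated pore genes, 19 were open (65.5%), with a median fold enrichment of 25.1 and 25.4. KCNH1, the ether-à-go-go channel known from brain and from many tumour lines, was the strongest, with 104 and 103. Behind it came genes usually described in neurons. KCNA2, a channel of axons, had 84.4 and 78.3. The transient-current gene KCND3 had 58.7 and 63.7. The fast channels KCNC4 and KCNC1 had 60.7 and 53.3, and 58.0 and 56.2. Values then fell through KCNH6 (41.2 and 44.2), KCNB2 (37.0 and 37.8), KCNH3 (30.1 and 31.8) and KCNH8 (24.2 and 25.4). KCNQ5 had 20.9 and 22.8, and KCNH4, an ether-à-go-go-like channel, had 18.4 and 22.1. KCND2, another transient-current gene, had 17.9 and 16.4. KCNH2, whose channel ends the cardiac action potential, had weak peaks of 8.51 and 9.07. KCNQ1, which serves heart and secretory epithelia, had 8.97 and 6.19.

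The silent subunits were open in 6 of 10 genes and held comparatively strong peaks, with a median of 44.4 and 48.6. KCNS3 had 86.1 and 95.3, KCNG3 had 90.7 and 84.9, and KCNG1 had 57.1 and 65.5. KCNS2 (31.8 and 31.8) and KCNF1 (25.5 and 24.5) lay lower, and KCNG4 had 11.0 and 9.95. KCNV1, KCNV2, KCNS1 and KCNG2 had no TSS peak.

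Inward rectifiers had the weakest peaks. Although 10 of 16 were open (62.5%), 7 of 16 were open at the canonical TSS, and the median fold enrichment of the open genes was 8.63 and 8.29. KCNJ11, the pore of the ATP-sensitive channel, was the exception with 46.0 and 41.4. Next came KCNJ13, with 17.5 and 20.1, under a peak shared with the promoter of GIGYF2. KCNJ3 and KCNJ6, subunits of the channels that G proteins open, had 8.28 and 7.74, and 6.21 and 5.31. The other open genes were KCNJ8, KCNJ5, KCNJ9, KCNJ2, KCNJ4 and KCNJ10. KCNJ12 and KCNJ18, which had no TSS peak, are near-identical copies, and reads shared between such copies may be lost or split, so their status is uncertain.

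Fold enrichment at open genes was much alike in the replicates. Across the 50 genes the ratio of replicate 2 to replicate 1 had a median of 0.999, and it stayed within 1.3-fold for 48 of them. As a description across genes, which are not independent and share both libraries, Spearman's rho was 0.962. KCNQ1 differed more, with 8.97 and 6.19, and KCNQ3 most, with 25.1 and 4.42. At KCNQ1 the 2 values belong to different peaks, and the peak over a TSS had 8.97 and 5.97. The difference at KCNQ3 came from the limit of 1 kb, as the same peak lay 979 bp from a TSS in replicate 1 and 1151 bp away in replicate 2, with a fold enrichment of 25.1 and 24.3. KCNK13 was called in replicate 1 alone for the same reason, since its peak of 40.7 and 44.0 lay 1000 and 1019 bp away.

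Besides KCNK13, KCNJ1 (3.91) and KCNJ15 (4.60) had a TSS peak in replicate 1 only. KCNA10 (6.41), KCNA3 (4.42) and KCNJ16 (3.76) had one in replicate 2 only. All of these but KCNK13 were weak peaks. In total 6 of 77 genes (7.79%) were called in 1 replicate, against 2.13% of all genes. The other 21 genes had no TSS peak in either replicate. Of these, KCNA7 lay just outside the limit, with a peak of 20.5 and 20.1 at 1087 and 1047 bp. KCNA4 was the farthest from any peak, at 53808 and 93765 bp.

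The KCNA genes, which encode Shaker-type pores, many of them known from axons, lie mainly in clusters on chromosomes 1 and 12. No peak lay within 1 kb of KCNA6 (chr12:4809334-4813318), KCNA1 (chr12:4909905-4918256) or KCNA5 (chr12:5043879-5046788). The 109 kb from the start of KCNA6 to the end of KCNA1 held 2 and 3 peaks, which is 1.84 and 2.75 per 100 kb. The longest stretch without a peak there ran to 59.5 and 46.1 kb. On chromosome 1, the 158 kb from KCNA10 to KCNA3 with KCNA2 between them held 51 and 50 peaks, or 32.3 and 31.7 per 100 kb. Even so, KCNA10 and KCNA3 had a TSS peak in replicate 2 only. The 3 neighbours on chromosome 6, KCNK5, KCNK17 and KCNK16, held 72 and 78 peaks in 134 kb, or 53.7 and 58.2 per 100 kb.

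Which start site was open differed between genes. For 14 of the 50 open genes (28%, 95% Wilson interval 17.5 to 41.7) the strongest TSS peak lay at another TSS. It was stronger than any peak at the canonical one in both replicates. Over all open genes the share was 19.8%, which lies within that interval. Several of the neuronal genes were among the 14. KCNA2 had 84.4 and 78.3 at its most 5′ TSS, at -25116 bp from the canonical TSS, and 12.2 and 12.2 at the canonical TSS itself. KCNC1 had 58.0 and 56.2 near an internal TSS, 44391 bp downstream, and 26.2 and 31.6 at the canonical TSS. For KCNJ10, KCNJ2, KCNJ8, KCNK2 and KCNN1, no peak lay at the canonical TSS in either replicate. Of the 50 open genes, 46 (92%) were open at their most 5′ TSS, against 90.5% of all open genes. Counted by site, 235 and 237 of 423 annotated TSSs had a peak within 1 kb (55.6% and 56.0%), against 65.4% and 66.0% over all genes.

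**Figure D2:**
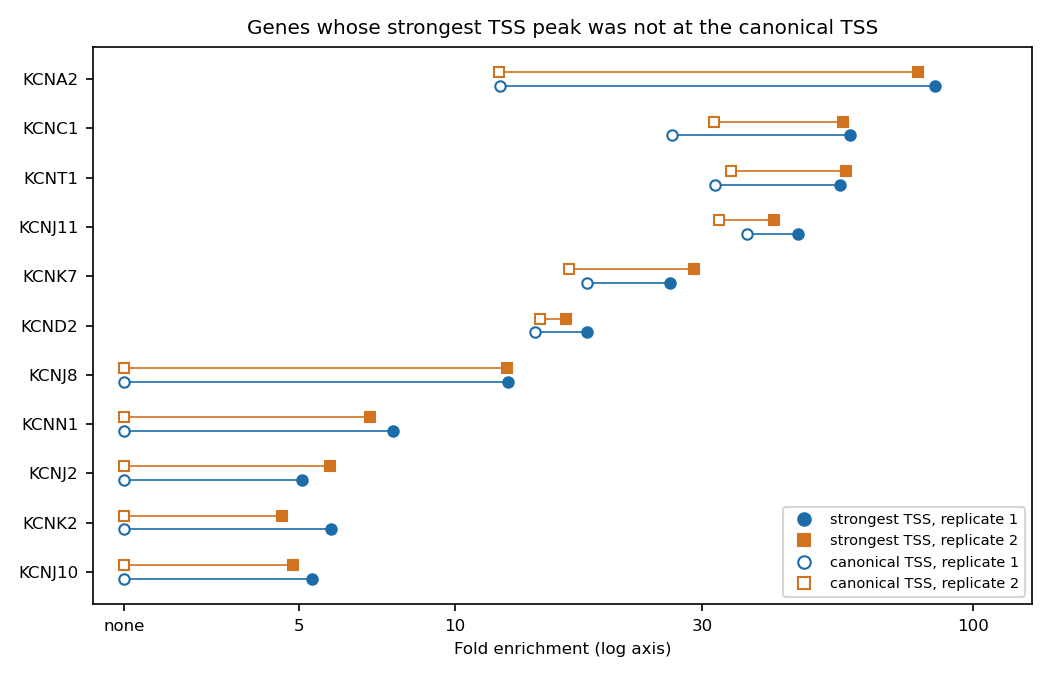
Fold enrichment (log axis) at the strongest TSS, filled marks, and at the canonical TSS, unfilled marks, for 11 of the 14 open genes in which the strongest was elsewhere in both replicates. KCNA2 shows the widest gap among the plotted genes with a canonical peak, and "none" marks genes with no peak there.

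The strongest TSS peak was within 1 kb of a TSS of another protein-coding gene for 3 of the 50 open genes (6%), against 25.2% of all open genes. These were KCNG3 with MTA3, KCNJ13 with GIGYF2 and KCNQ1 with TRPM5, and a peak in such a place cannot be assigned to either gene.

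CpG content went with openness among the potassium channel genes as it did among all genes. A promoter was called CpG-rich where the 1000 bp around the most 5′ TSS had at least 50% GC and a ratio of observed to expected CpG of at least 0.6. By this measure 47 of the 77 genes (61.0%) had a CpG-rich promoter, close to the 58.5% of all genes. Among them 37 were open (78.7%, 95% Wilson interval 65.1 to 88.0), against 92.7% of all genes with such promoters. Of the 30 other promoters 13 were open (43.3%), against 63.3%. Of the 10 CpG-rich promoters that were not open, 6 belonged to KCNA genes (KCNA1, KCNA3, KCNA4, KCNA5, KCNA6 and KCNA7), and the others were those of KCNG2, KCNJ12, KCNK12 and KCNK13. Without the KCNA family, a split made after its values had been seen, 37 of 41 CpG-rich promoters were open (90.2%). These counts take a peak at any TSS of the gene, while CpG content was read at the most 5′ TSS. At that TSS alone, 35 of 47 CpG-rich promoters were open (74.5%), against 89.8% over all genes. Of the other promoters 11 of 30 were (36.7%), against 48.8%.

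Peak strength was again taken from the strongest peak at any TSS. By this measure open genes of the family with a CpG-rich promoter had a median fold enrichment of 25.5 and 25.4. Over all genes it was 57.5 and 59.5. Among these family genes, KCNN2 and KCNJ10 were not open at the most 5′ TSS. The 13 open genes without a CpG-rich promoter had a median of 12.7 and 12.6, against 37.3 and 38.3. They were KCNN3, KCNA2, KCNH6, KCNN4, KCNK7, KCNJ13, KCNJ8, KCNG4, KCNJ9, KCNN1, KCNJ6, KCNK2 and KCNK16. Of these, KCNJ6 and KCNJ8 were not open at the most 5′ TSS, where CpG content was read. KCNN3 thus combined a CpG ratio of 0.33 with the strongest peak, and KCNJ4 combined a ratio of 1.00 with a fold enrichment of 5.06 and 5.53.

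**Figure D3:**
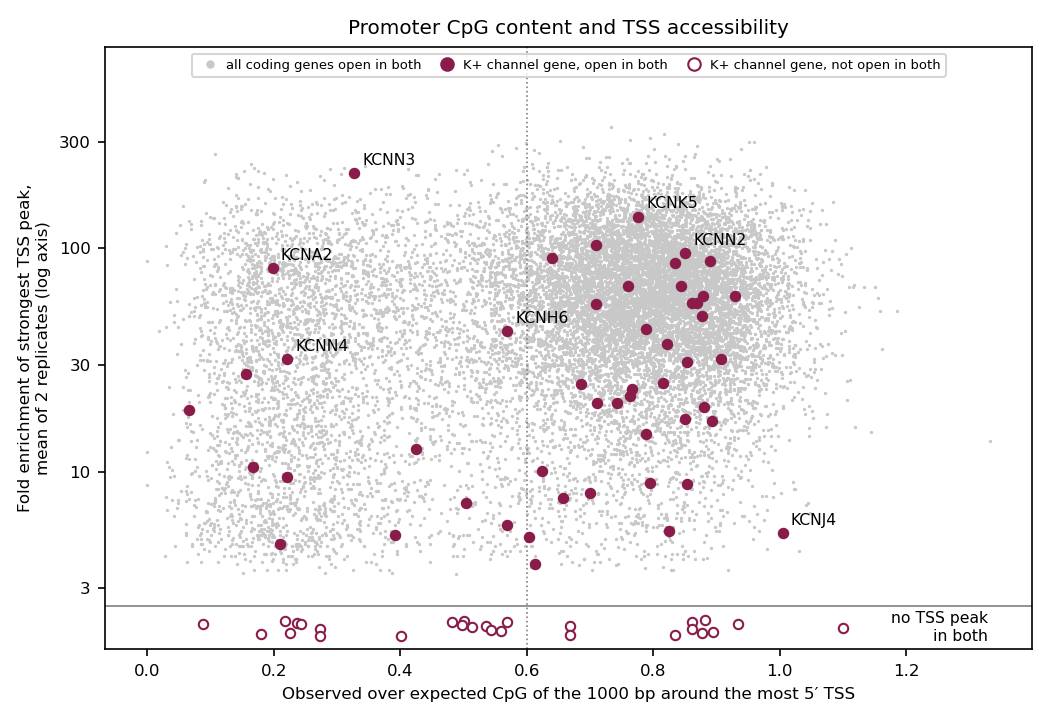
Ratio of observed to expected CpG around the most 5′ TSS against the fold enrichment of the strongest TSS peak (mean of 2 replicates, log axis), with all open genes in grey and the potassium channel genes in purple. Unfilled circles below the line are genes not open in both replicates, spread vertically only to be seen, and the dotted line marks the ratio of 0.6.

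Peaks inside the genes were common. A body peak was taken as one that overlapped the gene and lay more than 1 kb from each of its TSSs. At least 1 was found in both replicates for 64 of 77 genes (83.1%), against 71.7% of all genes. The potassium channel genes were also longer, with a median length of 40.7 kb against 27.9 kb for all genes, so shares are given by length too. Whether length accounts for the higher share was not tested. Each of the 23 genes of 20 to 100 kb had body peaks in both replicates, against 86.4% of all genes of that length. So did each of the 27 longer ones, against 99.1%. Among the 27 genes shorter than 20 kb, 14 did (51.9%), against 45.1% of all genes of that length. Body peaks were dense in the genes of 20 to 100 kb, with a median of 18.2 and 18.2 per 100 kb, against 8.22 and 8.75 over all genes of that length. In genes of 100 kb or more the medians were 5.65 and 5.74, against 6.61 and 7.21.

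In all, 908 and 970 body peaks were counted, of which 86.2% and 79.6% overlapped a peak of the other replicate. They lay in introns of the canonical transcript in 716 and 772 cases and in its exons in 38 and 41, and the rest fell outside that transcript. Their median fold enrichment was 6.67 and 6.41, below the 8.28 and 7.96 of all autosomal peaks.

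**Figure D4:**
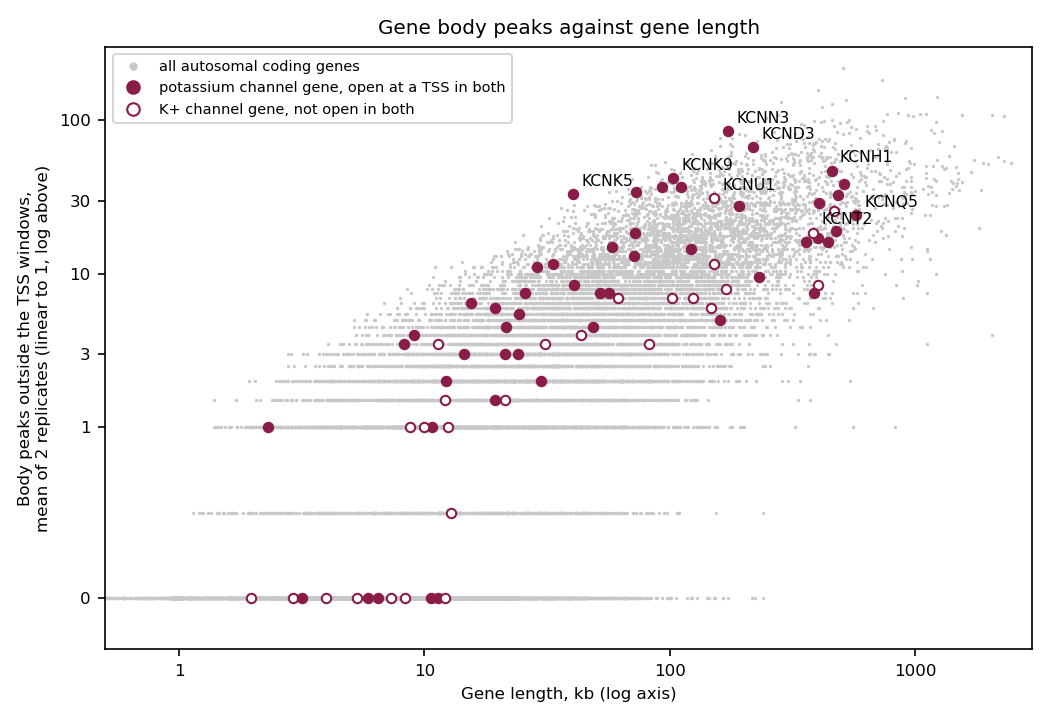
Body peaks per gene (mean of 2 replicates, linear up to 1 and logarithmic above) against gene length in kb (log axis) for all autosomal protein-coding genes in grey and the potassium channel genes in purple, filled where a TSS was open in both replicates. KCNN3, KCND3 and KCNK5 lie near the upper edge for their length.

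KCNN3 held the most body peaks, 79 and 90, or 45.7 and 52.1 per 100 kb. KCND3 followed with 68 and 66, KCNH1 had 47 and 47, KCNK9 had 37 and 47, and KCNJ6 had 34 and 43. Relative to length, KCNK5 was the densest of the family, with 33 and 33 body peaks in 40.5 kb, or 81.5 and 81.5 per 100 kb. This was at the 99.8th percentile of all genes in both replicates, and peaks covered 39.8% and 45.5% of the gene.

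Some body peaks were stronger than any TSS peak of their gene. The strongest, at chr1:110611819-110612667 in replicate 1 with 175 and 172, lay between annotated start sites of KCNA2, with its middle at -5885 bp from the canonical TSS. In KCNN3 the strongest body peak, in intron 2 of 7, had 160 and 177, still below its TSS peak. KCNJ9, whose TSS peak reached 8.97 and 9.95, had a body peak of 134 and 149 over exon 2 of 3. KCNK5 had one of 112 and 118 over its last exon, below its TSS peak of 133 and 146. KCNJ10 had one of 107 and 111, which lay within 1 kb of a TSS of PIGM. In KCNQ1, with its weak TSS peak, a body peak of 101 and 93.3 lay in intron 11 of 15, within 1 kb of the TSS of the antisense RNA KCNQ1OT1.

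**Figure D5:**
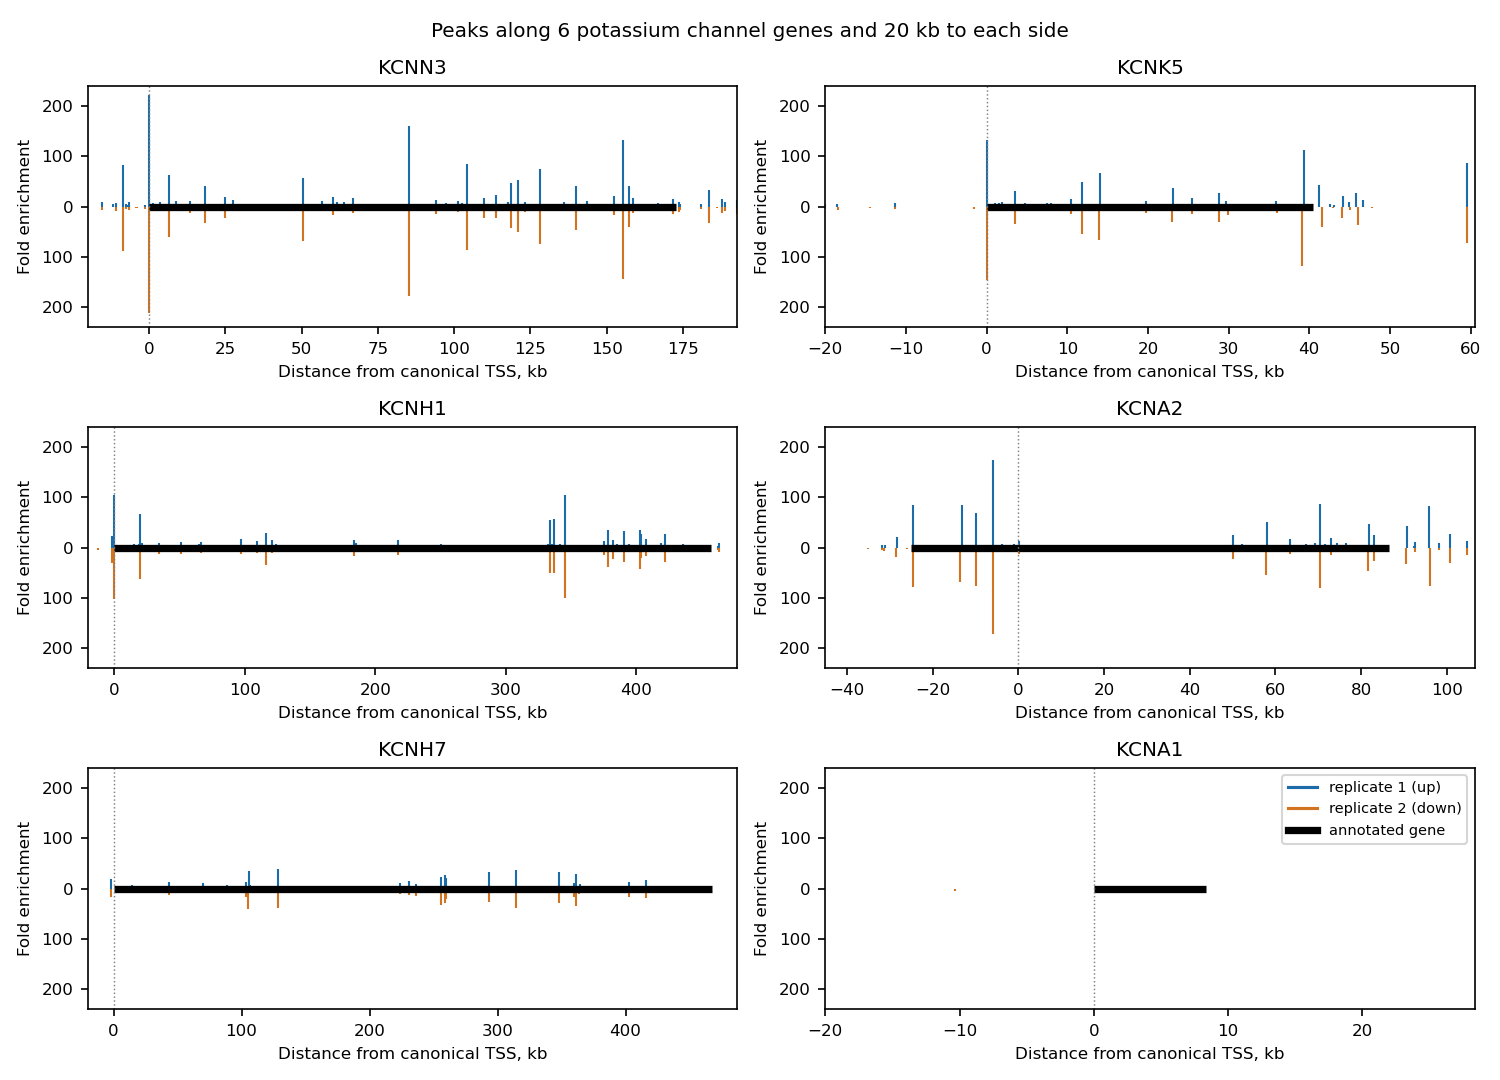
Peaks along KCNN3, KCNK5, KCNH1, KCNA2, KCNH7 and KCNA1 by distance from the canonical TSS in kb, with fold enrichment upward for replicate 1 and downward for replicate 2, the annotated gene in black and 20 kb added to each side. KCNH7 has peaks only within the gene and upstream of the 1 kb limit, and KCNA1 has none within it.

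Body peaks without a TSS peak were found in 14 of 77 genes (18.2%), against 7.32% of all genes. KCNU1 was the fullest of them, with 29 and 33 body peaks, the strongest 62.4 and 65.7. KCNH7 had 25 and 26, and KCNT2 had 15 and 22. At the other extreme, 6 genes (7.79%) had no peak at a TSS or in the gene in either replicate, against 9.53% of all genes. They were KCNA1, KCNA4, KCNA5, KCNA6, KCNA7 and KCNV1, all short genes of between 2.91 and 12.1 kb.

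Many neuronal genes, channels among them, carry the RE1 element, to which the repressor REST binds in cells other than neurons. The motif, of 17 bases, was searched on both strands, and 9 of 1075 and 10 of 1145 peaks at the potassium channel genes held a match (0.837% and 0.873%). Over all autosomal peaks the shares were 0.249% and 0.243%. The matches fell on 10 positions in 8 genes, KCNA2, KCNC4, KCNH1, KCNH4, KCNH8, KCNJ6, KCNK9 and KCNQ5, and 9 of these positions were under a peak in both replicates. Counts this small leave the shares imprecise. A match is a likeness of letters and was not tested for binding. Those of 5 genes are shown, 5′ to 3′ on the strand of the motif, with the match in capitals and 15 bases to each side.
KCNC4, intron 1, chr1:110218916-110218962: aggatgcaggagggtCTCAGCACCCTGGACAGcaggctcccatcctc
KCNA2, downstream of the canonical transcript, chr1:110542878-110542924: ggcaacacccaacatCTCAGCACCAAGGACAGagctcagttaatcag
KCNH1, intron 10, chr1:210726770-210726816: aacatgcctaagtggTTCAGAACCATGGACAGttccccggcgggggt
KCNH4, intron 1, chr17:42180272-42180318: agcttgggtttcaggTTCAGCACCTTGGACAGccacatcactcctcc
KCNJ6, intron 1, chr21:37914348-37914394: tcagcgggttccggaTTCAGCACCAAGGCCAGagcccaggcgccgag
The peaks over these matches had fold enrichments of 12.4 and 11.3 in KCNC4, 16.8 and 13.5 in KCNA2, 17.7 and 16.1 in KCNH1, 15.2 and 14.2 in KCNH4, and 8.05 and 7.30 in KCNJ6. The matches in KCNC4, KCNA2, KCNH4 and KCNJ6 are on the minus strand of the genome and that in KCNH1 is on the plus strand. In the promoter windows of 1000 bp, KCNK12 alone held a match (1 of 77), against 0.372% of all genes, and it had no TSS peak.

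CAMA-1 is known as a line with the estrogen receptor, whose element is GGTCA and TGACC with 3 bases between them. It was found in 1 and 2 of the peaks at the family (0.0930% and 0.175%), against 0.116% and 0.120% of all peaks. The match in both replicates lay at -404 bp from the canonical TSS of KCNJ9, under a weak peak of 4.60 and 4.64.
KCNJ9, chr1:160081113-160081155, plus strand: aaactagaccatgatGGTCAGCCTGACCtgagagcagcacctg
The AP-1 element, TGANTCA, was in 14.9% and 15.3% of the peaks at the family, against 16.6% and 16.3% of all peaks, and in 6 of 77 promoter windows (7.79%), against 17.1%.

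On chromosome 1, 10 of 13 potassium channel genes were open (76.9%, 95% Wilson interval 49.7 to 91.8), against 80.4% of all genes there. On the other autosomes 40 of 64 were open (62.5%), which lies within that interval. Of the 10 strongest members, 4 were on chromosome 1. The median fold enrichment of the open members on chromosome 1 was 59.7 and 58.5, and elsewhere it was 24.4 and 22.4. Over all open genes of chromosome 1 the median was 56.6 and 56.6, and over all autosomes it was 51.8 and 53.3, so that the chromosome as a whole was less far from the rest. Divided by the median of their own chromosome, the 50 open genes had a median of 0.486 and 0.461.

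Other channel genes were read in the same way. Of 19 auxiliary and other potassium channel genes outside the rule, such as KCNMA1, the KCNMB, KCNAB, KCNE and KCNIP genes, DPP6 and DPP10, 18 were open (94.7%) and 12 at the canonical TSS. Over all genes the shares were 80.5% at any TSS and 74.6% at the canonical TSS, where this list reached 63.2%. KCNE2 was not open. The open genes of this list had a median fold enrichment of 19.6 and 12.7. Of 22 pores for sodium, calcium or cyclic-nucleotide-gated current, 18 were open (81.8%), near the share of all genes, with a median of 31.4 and 29.7. At the canonical TSS 14 of the 22 were open (63.6%), below that of all genes. HCN3 was the strongest of these, with 145 and 159. No test of a difference between these lists and the potassium channel genes was made.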

How the data were processed

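Reads of 2 biological replicates of CAMA-1 ATAC-seq (50000 cells each, 1 condition) had been processed by the authors. Per the labels, Trim Galore 0.6.5, Bowtie2 2.3.5.1 and MACS2 2.2.6 were used with hg38, and peaks were listed per replicate. Settings for duplicates and for the shift of Tn5 insertions are not given in the sources used here, and they can move peak heights and edges. Each deposited peak carried its score and its fold enrichment, which is a ratio. The authors also gave its −log10 p-value and −log10 q-value. Read counts were not used here. Fold enrichments were whole steps of 0.230 and 0.221 (tolerance 0.001 of a step), from which heights in reads were computed as fold enrichment divided by the step, less 1.

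Genes, TSSs and the canonical transcript came from GENCODE 44, and bases from hg38. No peak ran past a chromosome end of that build. A peak counted at a TSS when its nearest base was within 1 kb, and in a gene body when it overlapped by at least 1 bp outside those windows. Genes were named by these rules: all open genes; the 25 with the best mean rank by fold enrichment; 20 chosen genes; the 5 with most and the 5 with the strongest body peaks; those called in 1 replicate; and those whose peak touches another gene. Some genes and a sequence that these rules would name are not reported here. The genes and lists were chosen with earlier results of these data known. The lists of other channel genes held 20 and 23 symbols, of which 1 each was not on an autosome. Shares carry 95% Wilson intervals, which cover counting error only. With a single condition no test between groups was possible. The overlap code was checked on made-up peaks with known answers. The tools were numpy 2.4.6, scipy 1.17.1 and matplotlib 3.10.9 under Python 3.11.15. Alternatives covered the peak threshold, the TSS distance and choice, each replicate alone and the CpG limits.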

Additional observations from a re-analysis of the deposited data

How the results depend on the processing

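No paired analysis was possible because the result comes from no test, with 1 condition. Of the alternatives run, 87 values moved by less than their interval or the spread of the replicates, and those that moved more follow. The share of open genes (64.9%) was 32.5% with the 50000 strongest peaks, 49.4% within 100 bp, 81.8% within 3 kb and 45.5% under a peak. The median fold enrichment of open genes (24.3 as the mean of the replicates) was 30.7 at a −log10 q of at least 10, 57.4 with the 50000 strongest peaks, 31.2 within 100 bp, 29.4 within 3 kb and 31.8 under a peak. Using each replicate alone it ran from 22.1 to 24.6. Divided by the chromosome median it was 0.474. With the 50000 strongest peaks, 34.5% of voltage-gated pores, 6.25% of inward rectifiers and 33.3% of two-pore-domain genes were open. Inward rectifiers fell to 25% within 100 bp and 25% under a peak. Voltage-gated pores rose to 82.8% and two-pore-domain genes to 86.7% within 3 kb. Body peaks in both replicates (83.1%) fell to 46.8%, and genes with no peak (7.79%) rose to 35.1%, with the 50000 strongest peaks. The median density of body peaks (9.29 per 100 kb) was 6.32 at the stricter q, 0.105 with the 50000 strongest peaks, 6.77 beyond 3 kb and 9.24 away from other coding TSSs, the last chosen after seeing the data, as was the canonical TSS. CpG-rich promoters among open genes (74%) were 52% at 55% GC and a ratio of 0.75, and 86% by the TSS with the highest ratio. The strictness of each alternative itself changes how many peaks or sites count. Shares over all genes at the settings above are not given. The 81.8% within 3 kb therefore cannot be set beside the 80.5% of all genes within 1 kb. Whether the gap between the family and all genes changes with the setting is not known from these values. No other cause was tested. With the 50000 strongest peaks, 25 of the 50 open genes were kept, and within 3 kb 13 more were open.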
